A study of Saccharomyces cerevisiae with 16 samples.

Results

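The 200 Saccharomyces cerevisiae genes described here had the fewest footprints of the small ribosomal subunit (40S) on their 5′ leaders relative to their start codons. The footprint counts of 3 unselected 40S libraries were summed for each transcript area, and a gene was considered if its start area held 300 or more counts, which 914 of 5818 genes did. The 200 genes with the lowest leader sum per start sum were taken, and the other 714 genes serve for comparison. Unselected leader and start counts therefore chose the set. Their values are given as a description, and nothing is read from gene calls that use them. The 3 factor-bound 40S libraries were not used in the choice.

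The series used translation complex profiling, in which ribosomal complexes are fixed to mRNA in living cells and the RNA they protect from nuclease is sequenced. All cells were budding yeast grown in YPD at 30 °C and fixed on ice with 0.8% formaldehyde for 1 h. Lysates were treated with RNase I, the 40S fraction was parted from the 80S fraction, and libraries were made from protected fragments of roughly 18 to 85 nt. Strain SY182 carries FLAG-tagged eIF3a (TIF32-FLAG), H25 carries FLAG-tagged eIF3c (NIP1-FLAG) and SY194 carries FLAG-tagged eIF2β (SUI3-FLAG). Each strain gave 1 unselected 40S library and 1 library of 40S recovered with anti-FLAG beads, numbered 1-1, 1-2 and 1-3 in that order, so all 6 libraries come from tagged cells. The factor-bound group thus holds 3 different factors with 1 library each, and factor and strain cannot be told apart within it. Counts over all areas ranged from 1595793 to 2800652 in the unselected and from 3403297 to 4486412 in the factor-bound libraries.

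In the scanning model of initiation, the 40S subunit with eIF2, initiator tRNA, eIF3 and other factors joins the mRNA near its cap and moves along the leader until it meets a start codon. There the large subunit joins and most factors leave. Footprints on the leader count subunits on their way, and footprints on the start codon count subunits that have stopped there. How many are found on a leader depends on its length as well as on how long subunits stay in it, and the counts are not divided by leader length.

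The set ran from 0 to 3.04 leader counts per 100 start counts in the summed unselected libraries, with a median of 1.21. The other 714 genes ran from 3.05 to 766, with a median of 15.6. The last genes inside the limit were RPL12A at 3.01, YEF3 at 3.03 and RPL15B at 3.04, and the first outside were DPS1 and LIP1, both at 3.05, and HSC82 at 3.11. The limit thus cuts through a continuous range. The median start sum was 1009 counts in the set and 781 in the other genes, whereas the median leader sum was 14 against 181. The highest start sum was 151792 in the set and 83684 in the other genes. The set held 40.6% of all unselected start counts of the table and 3.76% of its leader counts. For 65 of the 200 genes the leader sum was between 1 and 10 and for 23 it was 0, so that single ratios are imprecise, while 112 genes had more than 10 leader counts and 43 more than 100.

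The same genes had sparse leaders in the factor-bound libraries. Per 100 start counts, the set's median was 3.40 in the eIF3a-bound, 2.09 in the eIF3c-bound and 2.21 in the eIF2β-bound library, a mean of 2.57 ± 0.723 (SD, n = 3 libraries of 3 factors). The other 714 genes had medians of 25.4, 18.2 and 27.1 in the same libraries. In the unselected libraries 1-1, 1-2 and 1-3 the set's medians were 1.11, 1.34 and 1.2, and those of the other genes 15.3, 16.9 and 15.7. The library medians of the set lay below all library medians of the other genes. The 3 factor-bound medians lay above the 3 unselected ones in the set, whose unselected ratios were chosen low, and also in the other genes.

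**Figure D1:**
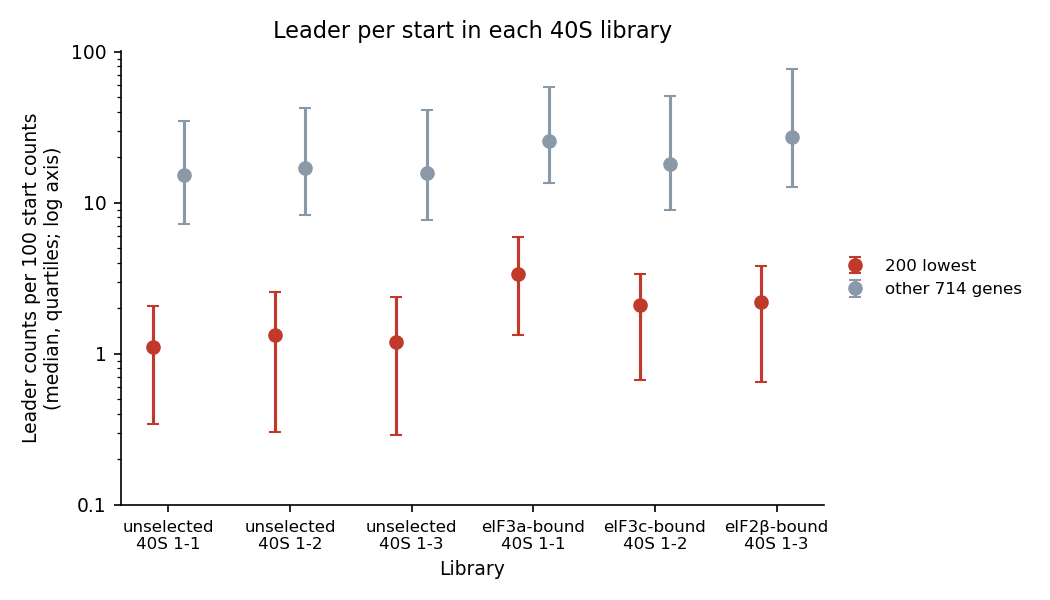
Leader counts per 100 start counts (log axis) in each of the 6 40S libraries, for the 200 genes chosen on the unselected libraries (red) and the other 714 genes (grey). Points are medians over genes and bars run from the first to the third quartile. The set's medians lie between 1.11 and 3.40 and those of the other genes between 15.3 and 27.1.

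With the 3 factor-bound libraries summed, the set ran from 0 to 13.3 leader counts per 100 start counts with a median of 2.67, and the other genes from 3.05 to 1626 with a median of 23.2. All 200 genes lay below the median of the other genes, 198 lay below their first quartile and 111 lay below each of the other 714. Ranked anew on the factor-bound libraries, 171 of the 200 (85.5%) were again among the 200 lowest. Spearman's rho between the unselected and factor-bound ratios was 0.97 across all 914 genes and 0.83 within the set, as a description across genes, which share their libraries and mRNA levels.

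**Figure D2:**
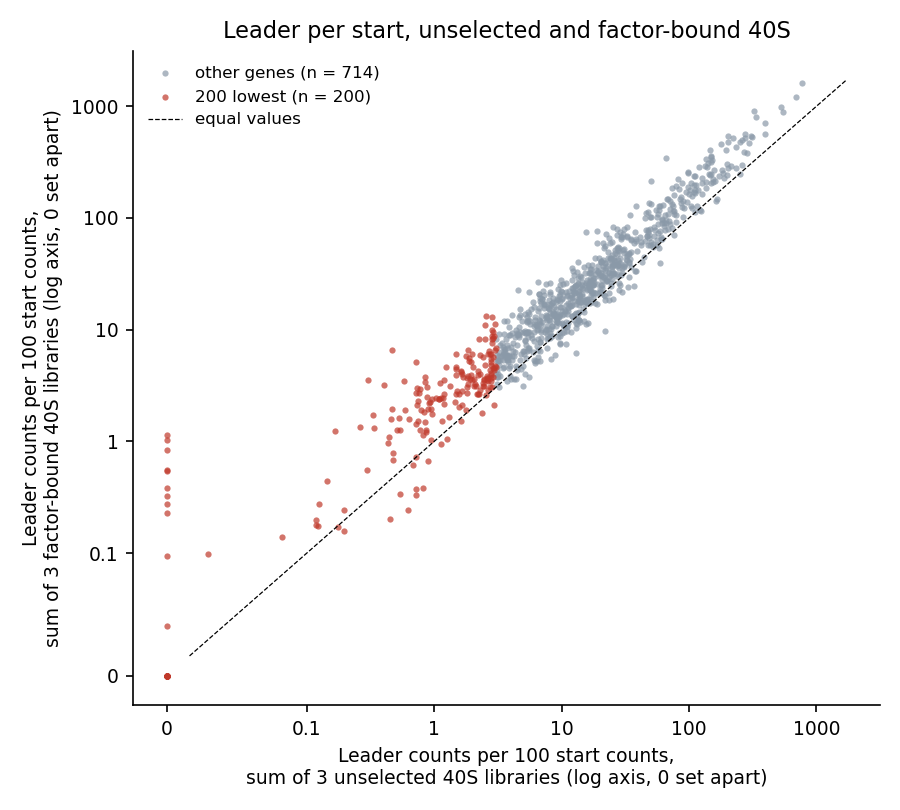
Leader counts per 100 start counts of 914 genes in the summed unselected (x) and summed factor-bound (y) 40S libraries, on log axes with 0 set apart at the lower left. Each point is a gene, red for the 200 lowest on the x axis, and the dashed line marks equal values. The red points reach 13.3 on the y axis, where the grey points begin at 3.05.

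Leader and start counts of the factor-bound libraries were also compared within each library with edgeR's quasi-likelihood test, fitted over all genes. Log2 ratios are expressed relative to a reference level that TMM scaling of the count columns sets. Of 3585 genes tested, 41.5% were called lower in leader counts per start count than this reference and 32.2% higher. Of the other well-covered genes, 712 were tested, of which 48.2% were called lower and 33.3% higher. In the set 199 of 199 tested genes were called lower at an adjusted p under 0.05 and none higher. The median log2 ratio was −3.46 in the set, −0.37 in the other well-covered genes and −0.35 over all genes. The reference thus lay above the median gene. Of the 199 genes, 98 passed the filter on low counts by their leaders alone, and 101 passed only through their start counts, where a low ratio is built in, so the count itself carries little. TDH3, with ample counts in both areas, had a log2 ratio of −3.04 (SE 0.21, adjusted p = 5.5e-17). GPM1 had −5.75 (SE 0.22, adjusted p = 1.4e-24).

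The gene not tested, FLO11, encodes a cell surface flocculin and passed the start limit through 1 strain. Its start counts were 462, 7 and 1 in the unselected libraries 1-1, 1-2 and 1-3 and 252, 1 and 0 in the factor-bound libraries of the same numbers. Only the SY182 pair was high, so its place in the set rests on that strain.

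As a check on the choice within the unselected libraries, the rule was applied to 2 of them with a start limit of 200, and the library left out was read. The sets so chosen shared 161, 181 and 186 genes with the 200 when library 1-1, 1-2 or 1-3 was left out. Their medians in the left-out library were 1.57, 1.33 and 1.18 leader counts per 100 start counts, against 16.8, 17.1 and 15.7 for the other genes. In the left-out library 199, 200 and 199 of the 200 genes lay below the median of the other genes. The low ratio was therefore present in libraries that took no part in the choice.

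These left-out libraries also allow the factor-bound 40S to be set against unselected 40S from the same strain, with the counts of neither used in the choice. The sets were still chosen on other unselected libraries. Gene levels that unselected libraries share can carry that choice over, which would favour a higher ratio in the factor-bound partner. The ratio of summed leader to summed start counts was 2.36 times as high with eIF3a, 1.31 times with eIF3c and 1.81 times with eIF2β as in the unselected partner. For the other genes the same ratio was 1.77, 1.45 and 2.06 times as high. By these sums, which a few genes dominate, the set was above the other genes in 1 pair and below them in 2. By the medians over genes it was above them in all 3 pairs, at 2.58, 1.47 and 1.87 times against 1.66, 1.06 and 1.73 times. The direction thus depends on the measure, and the difference was not tested.

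Start footprints of the set lay lower in the factor-bound member of each of these pairs, a direction that the choice on other unselected libraries can favour. The reference was the median gene with 30 or more start counts in the unselected library of the pair, with no limit on the factor-bound one. Relative to it, the set's median start count was shifted in the factor-bound library by −0.47, −0.69 and −0.44 on the log2 scale. The other genes were shifted by 0.14, 0.18 and 0.12. In the set 77.4%, 83.9% and 81.3% of genes lay below the median gene, against 37.2%, 37.2% and 37.7% of the others. Coding counts showed no such gap, at 0.16, 0.09 and 0.04 in the set and 0.29, 0.08 and 0.04 in the other genes.

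In the comparison of all 3 factor-bound with all 3 unselected libraries, whose start counts chose the set, 5.12% of 3868 genes tested were called lower at the start and 1.34% higher, and 2.66% and 2.81% of the other well-covered genes. In the set 68 of 200 (34%) were called lower and 0 higher by edgeR, with 3 higher at an unadjusted p under 0.05 and 0 by DESeq2, and nothing is read from these counts. With same-numbered libraries paired, edgeR called 134 of the set lower and 5 higher, beside 628 lower and 486 higher of all 3868 genes tested. With 1 library left out it called 26 to 51 of the set lower, beside 45 to 130 of all genes. The fewest were called without the eIF3c-bound library. The changes that follow are a description only, since unselected start counts chose the set. The median log2 change was −0.58 both in the 46 ribosomal protein genes of the set and over the whole set. It was −0.59 in the remaining 154 genes. RPL3, which encodes a protein of the large subunit, had 13915, 6675 and 7705 start counts in the unselected and 8821, 10400 and 13206 in the deeper factor-bound libraries, a log2 change of −1.01. TDH3 had a log2 change of 0.31.

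Footprints on leaders, whose unselected counts also chose the set, were compared between the groups for 96 of the 200 genes, and the rest had too few counts to be tested. Over all genes 1.67% were called lower and 0% higher, and 0.431% and 0% of the other well-covered genes. In the set 1 gene was lower and 0 were higher by edgeR, with 0 higher at an unadjusted p under 0.05 and 0 by DESeq2. With same-numbered libraries paired, 9 of the set were lower, beside 105 lower and 32 higher over all genes tested. The gene was RPS30B, which encodes a protein of the small subunit, with 65, 58 and 51 leader counts in the unselected and 87, 79 and 102 in the factor-bound libraries. All 3 factor-bound counts were above the unselected ones, in libraries that held more leader counts in all. Relative to the median leader, the log2 change of RPS30B was −1.39. That call was lost when any 1 of the libraries other than the eIF3a-bound one was left out, and nothing is read from these counts.

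In all 5 areas together, leader footprints made up 1.04%, 1.21% and 1.07% of the set's counts in the unselected libraries and 2.85% with eIF3a, 1.88% with eIF3c and 2.55% with eIF2β in the factor-bound ones. The other 714 genes had 12.4%, 12.5% and 13.1%, then 23.1%, 21.1% and 30.0%. The set's start area held 65.4 to 71.1% of its counts in the unselected and 78.4 to 85.1% in the factor-bound libraries. Median coding counts per 100 start counts were 47.6, 59.7 and 64.6 in the set and 48.4, 59.0 and 62.9 in the other genes of the unselected libraries. In the factor-bound libraries they were 32.3, 38.1 and 22.6 against 24.5, 20.7 and 15.4, so the set was higher in all 3. Per 100 coding counts it had 8.28 ± 0.965 stop counts and 11.1 ± 1.47 counts in the 3′ UTR in the unselected libraries (SD, n = 3), and the other genes had 7.75 ± 0.719 and 12.1 ± 1.46. In the factor-bound libraries, the set had 3.95 ± 1.40 stop and 10.9 ± 3.55 3′ UTR counts per 100 coding counts, against 3.75 ± 1.51 and 10.7 ± 3.43. Within libraries, stop counts per coding count were higher in the set in all 6, by the most in the unselected library 1-1 at 9.10 against 8.24. The 3′ UTR values were lower in the set in 4 libraries and higher in the eIF3a-bound and eIF3c-bound ones. These differences were not tested.

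**Figure D3:**
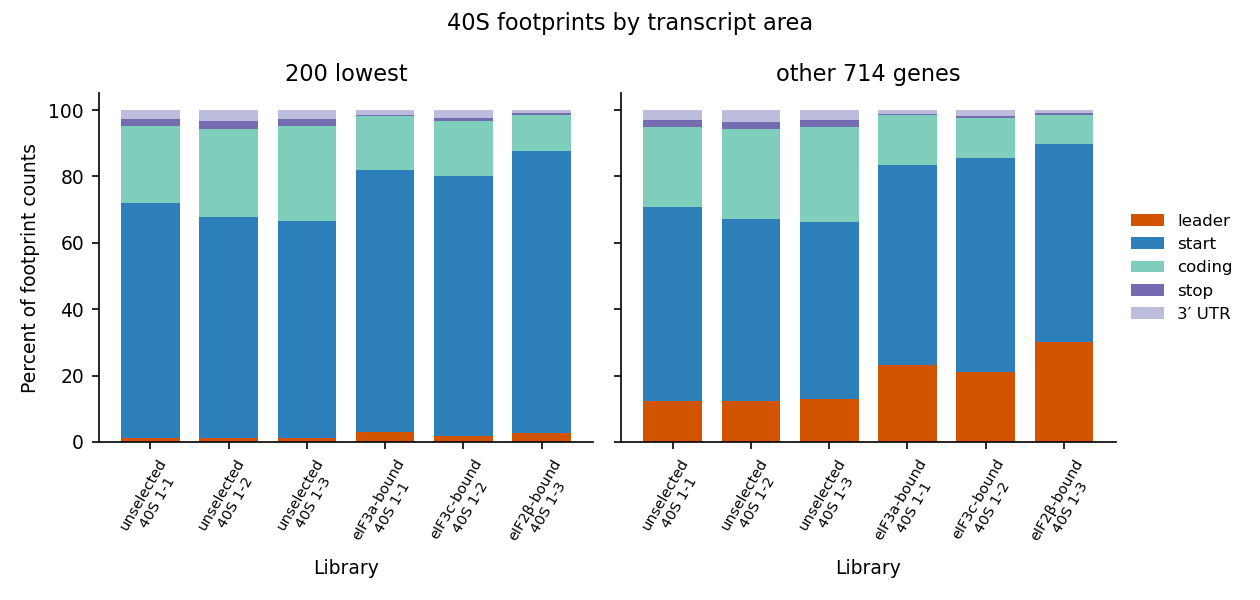
Percent of 40S footprint counts in each of 5 transcript areas for the 200 genes (left) and the other 714 genes (right), in the 6 libraries. The leader, drawn at the base of each bar, takes 1.04 to 2.85% in the set and 12.4 to 30.0% in the other genes.

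A few highly translated mRNAs carried much of the set. TDH3 alone, which encodes glyceraldehyde-3-phosphate dehydrogenase, held 10.3 to 11.5% of the set's start counts in the unselected and 15.5 to 17.9% in the factor-bound libraries. The 10 genes with the highest start counts in each library, ranked anew in each, held 43.9 to 45.8% and 53.6 to 54.7%. By summed unselected start counts, the 10 highest included TDH3, ENO2 (enolase), PDC1 (pyruvate decarboxylase), FBA1 (aldolase), CDC19 (pyruvate kinase) and GPM1 (phosphoglycerate mutase). These act in glycolysis and fermentation. The others of the 10 were TEF1 (elongation factor eEF1A), and RPL39, RPL10 and RPL3 of the large subunit. Medians over genes, given above, do not depend on this weighting.

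TDH3 had 1706, 1133 and 1200 leader counts beside 68559, 37948 and 45285 start counts in the unselected libraries. The factor-bound libraries held 5274, 4217 and 6724 leader counts beside 129046, 157062 and 155195 start counts, so that 2.49 to 2.99 and 2.68 to 4.33 leader counts stood beside 100 start counts. The groups overlapped. FBA1 was sparser, with 170, 97 and 94 leader counts beside 35819, 18946 and 21531 start counts in the unselected libraries and 437, 272 and 367 beside 40220, 40263 and 54940 in the factor-bound ones. GPM1 was the sparsest of the 10, with 45, 26 and 33 leader counts beside 16632, 8774 and 9627 start counts, and 99, 90 and 103 beside 15828, 18435 and 18548. Both FBA1 and GPM1 had a higher ratio in each factor-bound than in each unselected library. RPL10 had 0.77 leader counts per 100 start counts in the summed unselected and 1.27 in the summed factor-bound libraries, and RPL3 had 1.98 and 6.11. Read mapping among close copies is not described, so the counts of TEF1, whose coding region has a near-identical copy in TEF2, and of the TDH and ENO genes are uncertain.

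At the other end, 33 of the 200 genes had more than 5 leader counts per 100 start counts in the summed factor-bound libraries. The 5 highest were RPL6B at 13.3, DLD3 at 12.9, ERG2 at 11.3, DED81 at 11 and PRE6 at 9.93. RPL6B encodes a large-subunit protein, DLD3 a lactate dehydrogenase, ERG2 a sterol isomerase, DED81 the asparaginyl-tRNA synthetase and PRE6 a subunit of the 20S proteasome. RPL6B had 160, 96 and 96 leader counts beside 7325, 3130 and 3363 start counts in the unselected libraries. It had 536, 412 and 771 beside 3957, 3777 and 5218 in the factor-bound libraries, which gives 10.9 to 14.8 leader counts per 100 start counts against 2.18 to 3.07. The gene was picked for a high value in 1 group from a set picked for low values in the other, so this gap is no result. Of the 200 genes, 74 had all 3 factor-bound ratios above all 3 unselected ones. The same count was not made for the other genes, and the unselected ratios were chosen low, so nothing is read from it. Even RPL6B lay below the scaling reference in leader per start in the factor-bound libraries, with a log2 ratio of −1.2 (SE 0.18, edgeR adjusted p = 1.4e-07). The median over all genes tested was −0.35.

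Of the 200 genes, 23 had no leader count in the 3 unselected libraries, which may mean that no leader was annotated for them, since the sources used here do not give the authors' leader coordinates. No leader count was found in any of the 6 libraries for 12 of them, beside 27779 start counts in all. The remaining 11 had 1 to 4 leader counts in the factor-bound libraries, so some leader area was counted there. Over the 23 genes, the factor-bound libraries held 25 leader and 25460 start counts, so the leader was 0.0981% of the sum of both (95% Wilson interval 0.0665 to 0.145%, counting error only). All 23 had counts in their 3′ UTR, from 7 to 952 in the unselected libraries, and from 7 to 111 for the 12 with no leader count at all. Of all 5818 genes, 1059 had no leader count in any 40S library, and 626 of these had start counts. Missing annotation and an empty or very short leader cannot be told apart with these counts.

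The zero-leader gene with the most start counts was RPL8A, which encodes a large-subunit protein. It had 2453, 1525 and 1478 start counts in the unselected libraries with no leader count, which allows a leader of up to 0.055 counts per 100 start counts. Its factor-bound start counts were 1191, 1387 and 1947, with 1 leader count in the eIF3c-bound library. ZUO1, a ribosome-associated chaperone, had 1334, 823 and 582 start counts and then 470, 430 and 745, with no leader count in any library, which allows up to 0.11 and 0.182 per 100 in the 2 groups. RTN1, a reticulon of the endoplasmic reticulum, had 1171, 429 and 729 and then 1526, 1192 and 2437 start counts, also with no leader count, which allows up to 0.129 and 0.0582. Relative to the median gene, the log2 change of start counts between the groups was −0.02 for RTN1 and −1.96 for ZUO1. The limits count 3 reads as the most that a count of 0 allows.

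SGT2 (a cochaperone of tail-anchored protein insertion), ILS1 (isoleucyl-tRNA synthetase), PRO2 (proline synthesis), ILV3 (branched-chain amino acid synthesis) and RDL1 (a thiosulfate sulfurtransferase) were likewise at 0 in all 6 libraries. APE3, a vacuolar aminopeptidase, had 3 leader counts in the factor-bound libraries and HHO1, the linker histone, had 1. Upper limits in the unselected libraries for these 7 genes ran from 0.147 per 100 for SGT2 to 0.503 for HHO1. In the RefSeq annotation of build R64, the 23 zero-leader genes lay 147 to 1299 nt from the next gene upstream, with a median of 343 nt and 3 of them within 200 nt.

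Among the 177 genes with a leader count, the lowest ratio was that of RPS27A, a small-subunit protein gene, with 1, 0 and 0 leader counts beside 2465, 1748 and 1705 start counts in the unselected libraries. In the factor-bound libraries it had 0, 3 and 5 beside 1801, 2843 and 3473. The second copy of the gene, RPS27B, had 1806, 1104 and 1468 leader counts beside 10322, 5040 and 6133 start counts, and 4906, 6663 and 9925 beside 18964, 26224 and 25072. The copies thus differed in leader footprints in all 6 libraries with no overlap.

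Such splits also occurred in other duplicated ribosomal protein genes. Of all ribosomal protein genes with 300 or more start counts, 51.1% were in the set. Many split pairs would thus arise if copies fell into it independently, and the number of splits was not tested. Of 35 pairs in which both copies had 300 or more start counts, 9 had both copies in the set, 20 had 1 and 6 had none. In the 20 split pairs, the copy outside the set had 1.83 to 310 times as many leader counts per start count in the summed factor-bound libraries. The median was 5.65 times, and it was the higher copy in 20 of 20. That copy had the higher unselected ratio by the choice, and both ratios had a rho of 0.97 across the 914 genes. The direction was therefore largely fixed in advance, and nothing is read from it. RPS0A stood at 0.12 and RPS0B at 11.2 leader counts per 100 start counts in the unselected libraries, and at 0.198 and 14.8 in the factor-bound ones. RPS26A and RPS26B stood at 0.72 and 24.4 in the unselected libraries and again at 0.72 and 24.5 in the factor-bound ones. RPL1A and RPL1B stood at 0.406 and 13.3, then at 3.18 and 40.3. Copies of such pairs have near-identical coding regions, so their start counts may be split between them wrongly, whereas leaders differ more in sequence. The sources used here do not say how reads that map to both were treated. Pairs were examined after the values of the set had been seen.

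**Figure D4:**
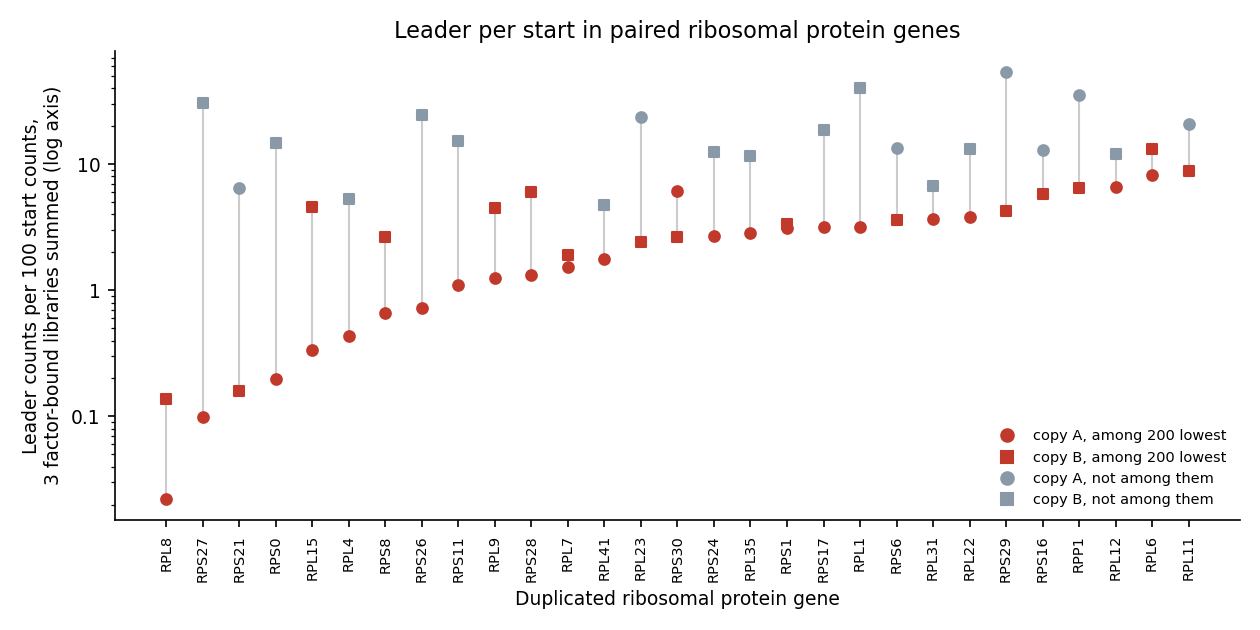
Leader counts per 100 start counts (log axis) in the summed factor-bound 40S libraries for both copies of 29 duplicated ribosomal protein genes with at least 1 copy in the set. Circles are A and squares B copies, red marks genes of the set, and a line joins a pair. In the 20 split pairs each grey copy lies above its red partner, a direction largely fixed by the choice on the unselected libraries.

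Ribosomal protein genes were the largest group in the set. Of 90 matched by symbol with 300 or more start counts, 46 (51.1%) were in it, 24 of 47 for the large and 22 of 43 for the small subunit. The shares were 154 of 824 (18.7%) for the other genes and 21.9% for all 914. The 43 include STM1, a ribosome-associated factor that was not in the set. Leaders of the ribosomal protein genes were not the emptiest of the set. The median unselected ratio was 1.58 leader counts per 100 start counts in the 46 and 1.17 in the remaining 154 genes of the set, and the factor-bound medians were 2.69 and 2.67. Their start areas were deeper, with a median sum of 13266.5 against 729.5 counts. RPL38 had 97, 43 and 70 leader counts beside 12814, 7856 and 7355 start counts in the unselected libraries. RPS3 had 46, 30 and 35 beside 11986, 6216 and 7194.

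Of the remaining lists, glycolysis and fermentation had 8 of 22 genes in the set (36.4%), histones 3 of 10, aminoacyl-tRNA synthetases 5 of 18, elongation and termination factors 3 of 12 and RNA polymerase subunits 3 of 12. Cytosolic chaperones, with 7 of 33, stood near the share of all genes. Below it were amino acid synthesis with 10 of 54, proteasome subunits with 5 of 30, initiation factors with 4 of 24, ribosome biogenesis factors with 5 of 35, and the respiratory chain and ATP synthase with 3 of 35 (8.57%). In amino acid synthesis the members with the most start counts were AAT2, an aspartate aminotransferase, at 0.474 leader counts per 100 start counts in the unselected libraries, LYS20 of lysine synthesis at 2.79, PRO3 of proline synthesis at 2.27 and MET17, a sulfhydrylase, at 2.84. Of genes in no list 81 of 429 were in the set. Of genes that reached the start limit, none of the 3 matched to mitochondrial ribosomal proteins by symbol alone (MRPL39, MRP2 and MRP8) was in it. None of the 3 with known upstream reading frames was in it either, and these numbers are too small to read. Gene lists were drawn up with earlier results of these data known and the shares are given with no test.

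**Figure D5:**
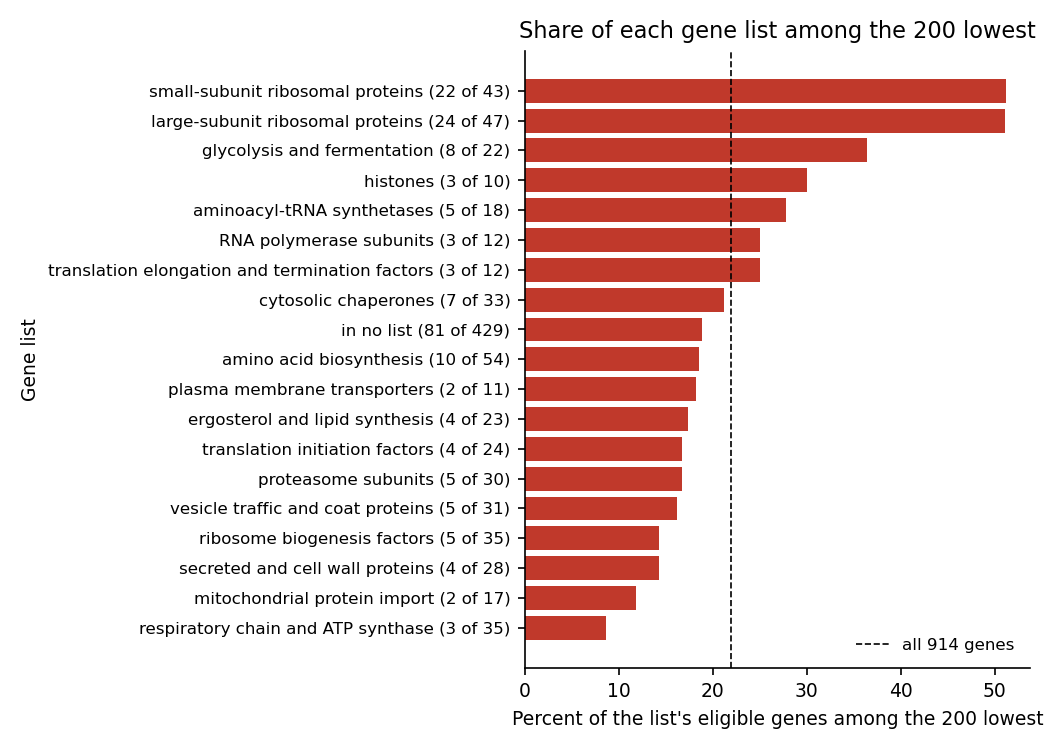
Percent of the genes of each list with a start sum of 300 or more that fell among the 200 lowest, for lists of 10 or more such genes, with the numbers beside each name. The dashed line is the 21.9% of all 914 genes. Both ribosomal protein lists stand at 51.1 to 51.2% and the respiratory chain at 8.57%.

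The 4 initiation factor genes of the set were RPG1 (eIF3a, also called TIF32), TIF35 (eIF3g), TIF11 (eIF1A) and DED1, an RNA helicase of initiation. RPG1, whose product is the tagged protein of strain SY182, had 2, 1 and 1 leader counts beside 95, 109 and 113 start counts in the unselected libraries, and 1, 5 and 3 beside 169, 285 and 397 in the factor-bound ones. TIF35 had 4, 4 and 4 beside 513, 272 and 324, and 23, 7 and 17 beside 653, 701 and 597.

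Coding regions were not used in the choice of the set, and their 40S footprints were compared between the groups for all 200 genes. Of 4797 genes tested with edgeR, 14.4% were called higher and 11.8% lower in the factor-bound libraries, relative to the median gene. In the set 33 (16.5%) were higher and 43 (21.5%) lower, and in the other 714 genes 13.2% and 14.6%. The share of genes higher was thus close to the background and the share lower was above it, while the median log2 change was −0.08 in the set, −0.03 in the other 714 genes and −0.00 over all genes. Whether the set differed from the other genes was not tested. With same-numbered libraries paired, 39 and 53 genes of the set were called higher and lower, beside 19.9% and 17.2% of all genes. Without overlap between groups, 42 genes of the set (21%) were higher and 65 (32.5%) lower, where all genes had 19.7% and 23.2%. Genes called lower were longer, with a median gene length of 1302 nt, than those called higher, at 603 nt, or not called, at 817 nt, and the part of length in these calls was not tested. Leaving out any 1 unselected library left 13 to 18 genes of the set higher, beside 473 to 525 of all genes tested. Scaled to the counts of all 5 areas, the median gene moved by −1.07 and the set by −1.14 on the log2 scale. With that scaling 2 genes of the set were higher and 152 lower, beside 91 higher and 3058 lower over all genes tested. The directions below therefore hold relative to the median coding region.

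The largest rise in the set was that of VMA10, which encodes a subunit of the vacuolar proton pump. It had 826, 597 and 682 coding counts in the unselected and 1511, 2950 and 2906 in the factor-bound libraries, a log2 change of 1.89 (SE 0.23, edgeR adjusted p = 0.000288). FCF1, which acts in 18S ribosomal RNA processing, had 257, 120 and 179 and then 468, 579 and 611, a log2 change of 1.72 (SE 0.22, edgeR adjusted p = 0.000398). DID2, of the endosomal sorting machinery, had 87, 47 and 73 and then 159, 147 and 235, a log2 change of 1.54 (SE 0.28, edgeR adjusted p = 0.00236). In each of these the 3 factor-bound libraries lay above the 3 unselected ones. YCR087C-A and PDX3, which encodes pyridoxine phosphate oxidase, followed with log2 changes of 1.07 and 1.05.

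The largest fall was that of SEC26, which encodes a coat protein of Golgi vesicles. It had 265, 157 and 192 coding counts in the unselected and 51, 89 and 45 in the factor-bound libraries, a log2 change of −1.66 (SE 0.21, edgeR adjusted p = 0.000398). UTR2, a cell wall glycosidase, had 195, 144 and 174 and then 42, 64 and 53, a log2 change of −1.61 (SE 0.21, edgeR adjusted p = 0.000401). YEF3, the fungal elongation factor eEF3, had 5124, 2870 and 3832 and then 1032, 1632 and 992, a log2 change of −1.61 (SE 0.14, edgeR adjusted p = 7.1e-05). In each of these the 3 factor-bound libraries lay below the 3 unselected ones. LCP5, of the machinery that assembles the small subunit, and ILS1 had log2 changes of −1.50 and −1.48.

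By list, all 4 secreted and cell wall genes of the set fell in their coding regions, where 11.8% of all genes tested did. They were PHO3 (acid phosphatase), UTR2, KAR2 (the chaperone of the endoplasmic reticulum) and CIS3 (a cell wall protein), with log2 changes of −1.41, −1.61, −0.97 and −0.75. Among all 28 such genes with 300 or more start counts 11 fell and 0 rose, so the fall was not limited to those with sparse leaders. Beside the 11.8% lower and 14.4% higher of all genes, the other lists are small. Of 8 glycolytic and fermentative genes of the set 4 fell and 0 rose, of 5 synthetase genes 2 fell, and of 7 chaperone genes 3 fell and 1 rose. Of the 46 ribosomal protein genes, 11 rose and 3 fell. Among all listed genes with 300 or more start counts, 7 of 22 glycolytic and fermentative genes fell and 2 rose. Of 18 synthetase genes 6 fell and 0 rose, and of 33 chaperone genes 11 fell and 4 rose. Of 47 large-subunit genes 13 rose and 3 fell, and of 43 small-subunit genes 10 rose and 1 fell. These directions too were not limited to genes with sparse leaders.

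Genes of the set were slightly shorter and more closely spaced in the RefSeq annotation than the other 714. Median gene length, introns included, was 820.5 nt against 955.5 nt, and the median distance to the next gene upstream 407.5 nt against 544 nt. The upstream gene lay within 200 nt or overlapped for 15 genes of the set (7.5%) and for 24 of the others (3.36%). A list of cap sites deposited by the authors, with leaders from 80 nt upward, covers 184 genes of the table. Of these, 82 had 300 or more start counts, with leaders of 80 to 520 nt, and 1 was in the set, RPP1B, with a leader of 112 nt and 1.84 leader counts per 100 start counts. Across the 82 genes Spearman's rho between leader length and the unselected ratio was 0.62, as a description. Leader lengths of the other 199 genes were not analysed here.

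Coverage of 80S footprints was deposited for 2 genes of the set, RPG1 and TIF35, without scaling to library size. Mean coverage from 50 to 21 nt before the start codon was set against that of the first 30 nt of the coding region, a window chosen after the data were seen. For RPG1 the upstream window held 5.88, 0, 0 and 0.154 per 100 in 4 unselected 80S libraries, 14.4, 19.0 and 6.43 in 3 eIF3a-bound ones and 14 in the eIF3c-bound one. For TIF35 it held 0.315, 0.76, 0 and 0, then 3.27, 1.87 and 0.661, and 4.09. For RPG1 each factor-bound library was above each unselected one. For TIF35 the groups overlapped, while each factor-bound library was above the unselected library of the same number. SUI3 (eIF2β), which is not in the set, held 0.727 to 14.8 in the unselected, 5.85 to 28.5 in the eIF3a-bound and 71.7 in the eIF3c-bound libraries. Its factor-bound libraries were likewise each above the unselected library of the same number.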

How the data were processed

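The authors' deposited gene table holds whole-number footprint counts, not normalized, for 5 transcript areas in 6 libraries of 40S. The sources used here do not give how footprints were assigned to areas, the leader annotation, strand, or how reads with several matches were handled. Build R64 and the tools TopHat2 2.1.0, Bowtie2 2.2.6, Bowtie 1.2.2 and CASAVA 1.8 are those of the submitters' processing notes. The authors' deposited coverage files give unscaled 80S signal per nucleotide. Per the file headers, the library numbered 1-3 is eIF2α-bound, where the labels name eIF2β, which is used here.

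Of 5818 gene IDs, 5776 matched the RefSeq table of R64. Tests used edgeR 4.0.16 under R 4.3.3 with filterByExpr, TMM scaling within an area, the quasi-likelihood test over all genes and Benjamini-Hochberg adjustment at 0.05, with DESeq2 1.42.0 as an alternative. The leader test has library as a block and the others have none. The scripts were tested on simulated data. Same-numbered libraries come from the same tagged strain, and their deviations from group means correlated at 0.45, 0.41 and 0.40 in leaders, 0.59, 0.49 and 0.43 at starts and 0.32, 0.26 and 0.26 in coding regions, so the numbers pair the libraries. No source says whether libraries came from separate cultures. A p-value therefore covers only library-to-library spread, possibly technical, which in the factor-bound group includes that between factors.

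Named genes are the 10 highest start sums, up to 10 zero leaders by start sum, 3 genes on each side of the limit, 5 highest factor-bound ratios, the 5 largest rises and falls in coding regions without overlap, and examples of the 3 largest lists. Others were chosen after their values were seen. The members and gene lists were chosen with earlier results of these data known.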

Additional observations from a re-analysis of the deposited data

Results flagged for a closer look

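The coverage upstream of RPG1 in the unselected 80S library 1-1, at 5.88 per 100 of the first 30 nt, stood far from the other 3 unselected 80S libraries, which held 0, 0 and 0.154. The gap passed Dixon's 95% critical value for a single far value in a group of 4, a test that flags about 1 in 20 groups by chance. The eIF3a-bound values of 6.43 to 19.0 lie above all unselected ones with or without that library.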

How the results depend on the processing

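Within the factor-bound libraries, a leader-per-start ratio below the scaling reference was called for 196 to 200 of 200 genes under all 14 alternatives. These include 196 with no replicate block, 199 by DESeq2 and 199 without any 1 factor-bound library. In the main fit 41.5% of all genes tested were called lower as well. Of the alternatives, 7 choose another 200 genes, sharing 120 to 190 with the set. In the set, 101 of the 199 genes called pass the filter through start counts alone. The set's median ratio there, 2.57, became 1.19 with a start minimum of 150 and 3.70 with one of 600, which shared 120 and 136 genes with the set. It was 2.15 to 2.80 with 1 factor-bound library left out and 2.43 to 3.23 with the rule applied without 1 unselected library. Coding-region calls of 33 higher and 43 lower became 2 and 152 with library sizes from all 5 areas, 13 to 29 and 30 to 42 with 1 library left out, and 23 and 36 by DESeq2. Start calls of 0 higher and 68 lower became 5 and 134 with same-numbered libraries paired as a replicate block. They became 0 and 26 to 51 with 1 library left out, and 5 higher with library sizes from all areas. All genes tested gave 486 and 628, 1 to 18 and 45 to 130, and 288 higher in these 3 settings. Leader calls of 0 higher and 1 lower became 0 and 9 with the block, 43 and 0 with library sizes from all areas, and 0 and 0 to 1 with 1 library left out. Scaling to library sizes from all areas moved the median gene by −1.07 in coding regions, 0.28 at starts and 1.02 in leaders on the log2 scale. The block changed no other count of the set by more than 1.5 times. The causes were not tested. Few leader counts limit the ratio of single genes, and the 5′ UTR comparison covers 96 of 200 genes.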
